A study of Mus musculus with 12 samples.

Results

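Cells sorted from the cortex as the lineage of the medial ganglionic eminence (MGE) were compared between embryonic days E14.5 and E18.5, with 3 arrays per age. These were 6 of the 12 arrays in the series, and all probe sets that carry a single gene symbol were followed, which left 8792 genes after probe sets too dim to measure had been set aside. The cells came from the cortex of untreated Nkx2-1-Cre Tg embryos that carried R26R-YFP fl/fl on a mixed C57BL/6/CBA background, at both ages. In these mice Nkx2-1 regulatory sequences drive Cre, and Cre switches on YFP from the Rosa26 locus in the cell and in all its descendants. Tissue from several embryos was pooled, dissociated with papain and sorted for YFP by flow cytometry. The cDNA amplified from the RNA was labelled and hybridised to Affymetrix mouse genome arrays. The 3 arrays of an age are described as independent replicates, and the number of embryos or litters behind each is not stated in the sources. The remaining 6 arrays held cells of the caudal ganglionic eminence (CGE), sorted as Venus+ cells from Nkx2-1-Cre;Dlx1-lox-Venus-lox embryos at E16.5 and E18.5, 3 arrays each, in which Cre removes Venus from MGE cells. They also entered the filter on dim probe sets and the estimate of the spread, and are described only in the comparison given last.

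MGE-derived interneurons leave the ventral forebrain under the control of LHX6, migrate tangentially into the cortex and there become mainly somatostatin (SST) and parvalbumin (PV) interneurons. At E14.5 many are still migrating, and by E18.5 many have reached the cortical plate. The Nkx2-1 domain also produces oligodendrocyte precursors that enter the embryonic cortex, so a sort on the Nkx2-1 lineage can hold both neurons and glial precursors. Cre-driven YFP labels by ancestry and not by cell type.

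All levels below are normalised log2 intensities of a probe set, so a difference of 1 is a 2-fold change. Differences are E18.5 minus E14.5 with their standard error (SE), and a gene was called where limma's Benjamini-Hochberg adjusted p over all 8792 genes was under 0.05. Calls of a gene's other probe sets come from a separate fit, adjusted over all 16002 kept probe sets. Each alternative fit was adjusted over its own genes. Of the 8792 genes 1005 (11.4%) were higher at E18.5 and 859 (9.77%) were lower, 1864 (21.2%) in all. Increases were larger than decreases. The median called increase was 1.18 and the median called decrease was -0.61, against a median of -0.06 over all genes. A change of at least 2-fold was called for 586 genes in the upward direction (6.67%) and for 123 in the downward direction (1.4%), and a change of at least 8-fold for 123 and 3 genes. The 3 E18.5 arrays did not overlap the 3 E14.5 arrays for 4201 genes (47.8%), 1857 of them called. Such separation is common and is given below for single genes as a description. Each gene list is to be read against the shares of all genes called, and the lists with many genes dim at E14.5 also against a fit with no filter, in which 12.1% of 11361 genes were higher and 8.17% lower. Leaving out single arrays lowered the count of decreases the most, to 461 without E14.5 replicate 1, 470 without E14.5 replicate 2, 544 without E18.5 replicate 1 and 476 without E18.5 replicate 3. Replicates of an age correlated at r = 0.980 to 0.995 across all 27094 probe sets, and E14.5 replicates 1 and 2 were the closest pair. Values come from bulk sorted cells, so fewer cells of a type and less RNA per cell cannot be told apart.

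**Figure D1:**
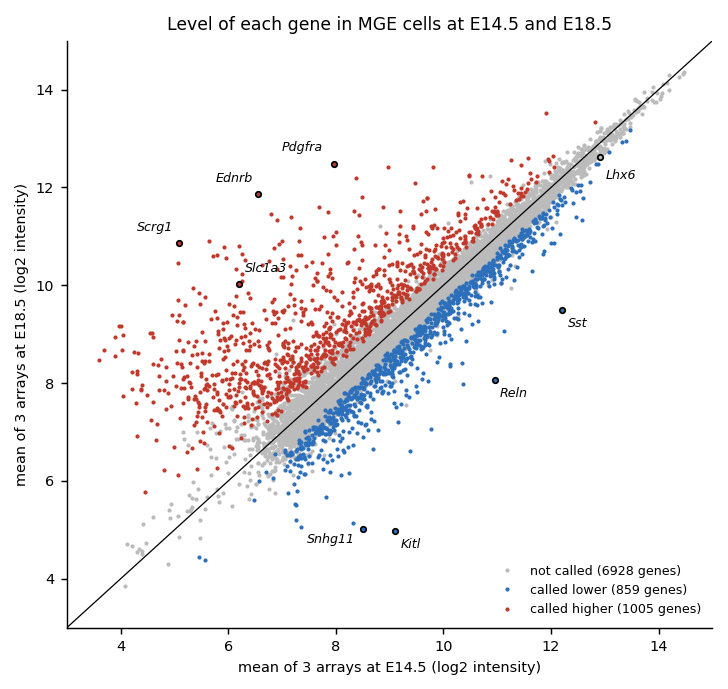
Mean log2 level of each of the 8792 genes over the 3 E14.5 arrays (horizontal axis) and the 3 E18.5 arrays (vertical axis), coloured by whether the gene was called higher (1005), lower (859) or not called (6928). The points farthest from the diagonal lie above it, at genes with low levels at E14.5 such as Scrg1 and Ednrb, while Kitl and Snhg11 lie farthest below.

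The largest increases were of genes near the bottom of the scale at E14.5. All of the 20 largest had a mean at E14.5 below 7.10, the level used to set dim probe sets aside, where signal may be near the array background, so the sizes of these differences are uncertain. Scrg1, named as a scrapie-responsive gene, read 4.83, 5.09 and 5.32 at E14.5 and 10.68, 10.57 and 11.34 at E18.5 (5.79 ± 0.24 SE, adjusted p = 3.5e-08). Tril, a partner of the Toll-like receptor TLR4, read 4.83, 5.21 and 5.16 and then 10.34, 10.11 and 10.90. Ednrb, the endothelin receptor B, read 6.58, 6.65 and 6.42 and then 11.87, 11.55 and 12.16 (5.31 ± 0.25, adjusted p = 6.8e-08). E18.5 replicate 3 read highest in each of these genes. Sox8, a transcription factor of the SoxE family, rose by 5.25 ± 0.37, and Calcrl, the receptor subunit for adrenomedullin and CGRP, by 5.06 ± 0.15. Klf9, a zinc finger factor induced by glucocorticoid and thyroid hormone in neural cells, read 3.72, 3.95 and 3.42 and then 8.51, 8.43 and 9.09 (4.98 ± 0.51, adjusted p = 2.9e-05). The others among the 20 were Tmem132d, Vit, Kcnj16, Gpr17, Afap1l2, Nkx2-2, Emid1, Itgav, Gfra1, P2rx7, Pter, Pcdh11x, Shc4 and Sox10, with rises of 4.59 to 5.20.

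The largest decrease was of Kitl, the ligand of the KIT receptor. It read 9.01, 9.0 and 9.29 at E14.5 and 4.47, 5.82 and 4.64 at E18.5 (-4.13 ± 0.38, adjusted p = 1.3e-05), and its 3 other probe sets fell by 3.47 to 4.12. Snhg11, a noncoding host transcript of small nucleolar RNAs, read 8.26, 8.76 and 8.49 and then 5.49, 4.59 and 5.0 (-3.48 ± 0.43). E18.5 replicate 2 was the highest array of its age for Kitl and the lowest for Snhg11. Ism1, which encodes the secreted protein isthmin, fell by 3.17 on the log2 scale, Gjc1, the gap junction protein connexin 45, by 2.76, and Kcp, an extracellular modulator of BMP signalling, by 2.71. Reln, Sst and Calb1 were also among the 20 largest decreases and are described with the interneuron genes.

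Oligodendrocyte precursor genes rose together. Of the 24 listed, 20 passed the filter, 9 of them with an E14.5 mean under the dim level, and 17 rose and none fell, whichever single MGE array was left out. In the fit with no filter, where passing cannot fix a direction, 19 of 22 rose and none fell, with a median of 3.13. Pdgfra, the PDGF receptor that marks oligodendrocyte precursors, read 8.03, 8.43 and 7.42 at E14.5 and 12.52, 12.25 and 12.70 at E18.5, a 23.0-fold rise (4.52 ± 0.45, adjusted p = 2.6e-05). Cspg4, the NG2 proteoglycan of the same cells, read 6.96, 7.25 and 7.26 and then 11.18, 11.11 and 11.89 (4.24 ± 0.26, adjusted p = 3.9e-07). Every E18.5 array exceeded every E14.5 array by more than 3 log2 units in both genes. Among the transcription factors that specify the lineage, Olig2 read 6.09, 6.40 and 6.26 and then 10.16, 9.77 and 10.78 (3.98 ± 0.21, adjusted p = 1.4e-07). Olig1 rose by 3.81 ± 0.26 from 8.41, 8.72 and 8.0. Sox10, a SoxE factor needed for oligodendrocyte differentiation, read 5.87, 6.19 and 6.56 and then 10.68, 10.40 and 11.31 (4.59 ± 0.23). The other probe sets of Sox10 rose less, by 1.97 and 2.47. Nkx2-2, a homeodomain factor of the lineage, rose by 4.85 ± 0.23, and Gpr17, a receptor of committed precursors, by 4.89 ± 0.19. Extracellular and adhesion genes of the list rose too, with Cntn1, a contactin of the axon-glia interface, at 3.45 ± 0.25, Ptprz1, a receptor phosphatase, at 3.19 ± 0.29, and the proteoglycan Cspg5 at 3.07 ± 0.28. The adaptor gene Traf4 was not called, at -0.27.

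Of 17 genes of the next step toward myelin, 5 passed the filter, 3 of them dim at E14.5, and 4 rose. The count was 3 without any single MGE array other than E18.5 replicate 2. In the fit with no filter 7 of 9 rose and 1 fell, with a median of 1.02. Bcas1, which marks oligodendrocytes in early myelination, read 6.64, 6.96 and 6.29 and then 10.45, 10.06 and 10.72 (3.78 ± 0.42, adjusted p = 5.4e-05). Ugt8a, the enzyme that makes the myelin lipid galactosylceramide, rose by 2.65 ± 0.34, and Cnp, a myelin enzyme, by 2.33 ± 0.25. Ermn, a cytoskeletal protein of mature oligodendrocytes, was at -0.60 ± 0.20 and not called (adjusted p = 0.051), although its other probe set was (-1.19, adjusted p = 0.041). Mbp, Mog, Cldn11 and Fa2h were below the dim level.

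Radial glia and astrocyte genes also rose. Of 30 listed, 19 passed the filter, 4 of them dim at E14.5, and 14 rose and none fell. Without 1 MGE array 11 to 13 rose. In the fit with no filter 15 of 23 rose and none fell, with a median of 1.03. Slc1a3, the glutamate transporter GLAST, read 6.41, 6.42 and 5.78 and then 10.06, 9.69 and 10.32 (3.81 ± 0.28, adjusted p = 1.5e-06). Sox9, a gliogenic SoxE factor, read 7.80, 8.34 and 7.86 and then 10.79, 10.46 and 11.21 (2.82 ± 0.27). Fabp7, the brain lipid-binding protein, read 11.98, 12.12 and 11.63 and then 13.61, 13.41 and 13.53 (1.61 ± 0.15). E14.5 replicate 3 read lowest of its age in Slc1a3 and Fabp7. The Notch effector Hes5 rose by 2.95 ± 0.49, Aldoc, an aldolase of astrocytes, by 2.50 ± 0.35, and Nes, the intermediate filament nestin of neural progenitors, by 1.37 ± 0.26. The progenitor factors Sox2, at -0.34 (adjusted p = 0.13), and Pax6, at -0.27 (adjusted p = 0.60), were not called, and the astrocyte genes Aqp4, Gja1 and Sparcl1 were below the dim level. Of the 4 nuclear factor I genes, which drive the onset of gliogenesis and neuronal maturation, 3 rose. Nfix read 10.27, 9.89 and 8.26 and then 11.78, 12.42 and 12.09 (2.62 ± 0.40), and E14.5 replicate 3 was well under the other two. Nfia rose by 1.85 ± 0.25 and Nfib by 1.42 ± 0.22, with 1 of the 6 other probe sets of Nfib not called.

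**Figure D2:**
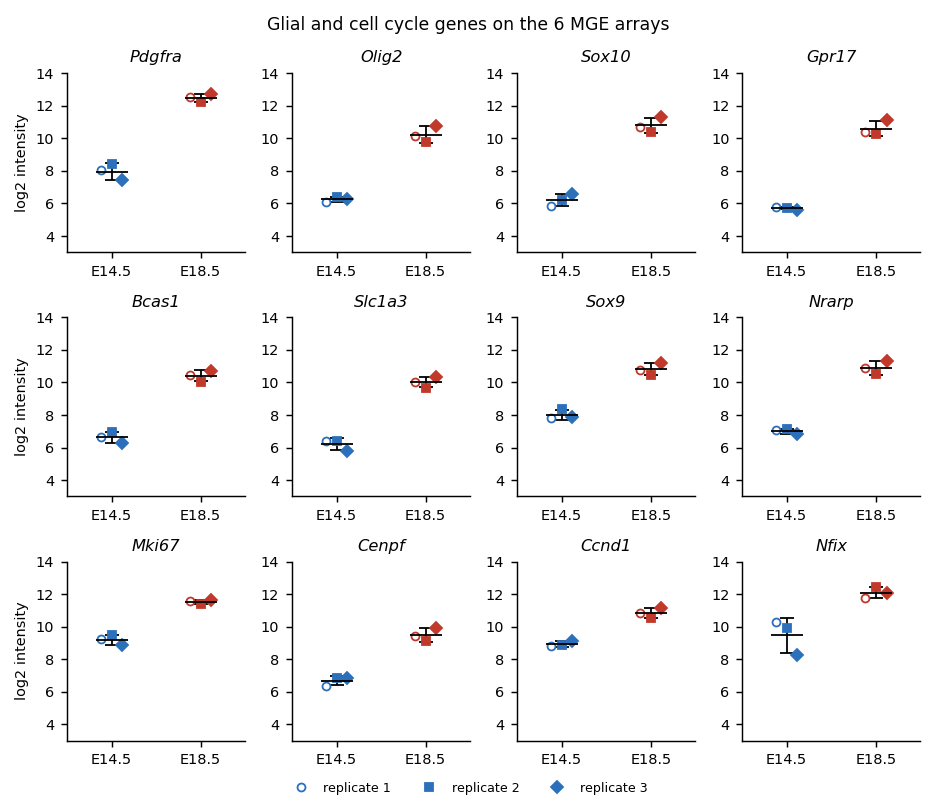
Log2 level of 12 glial, Notch and cell cycle genes on each MGE array (points) at E14.5 and E18.5, with bars for the mean ± SD of 3 arrays. In all 12 panels the 3 E18.5 arrays lie above the 3 E14.5 arrays, and the gap is widest in Gpr17 and Sox10.

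Genes of mitosis rose as well. Of 37 listed, 34 passed the filter, 27 of them dim at E14.5, and 27 were called higher. In the fit with no filter 28 of 36 rose and none fell, with a median of 1.82. The count among the 34 changed with the arrays in the fit. It was 34 in a fit of the 6 MGE arrays alone, and 11 without E14.5 replicate 1, 17 without E14.5 replicate 2, 8 without E14.5 replicate 3, 13 without E18.5 replicate 1, 25 without E18.5 replicate 2 and 6 without E18.5 replicate 3. Mki67, the proliferation antigen Ki-67, read 9.22, 9.46 and 8.89 at E14.5 and 11.57, 11.37 and 11.62 at E18.5 (2.33 ± 0.52, adjusted p = 0.0086). Cenpf, a kinetochore protein, read 6.36, 6.83 and 6.82 and then 9.42, 9.12 and 9.92 (2.82 ± 0.63, adjusted p = 0.0085). Nusap1, a spindle protein, read 6.69, 6.28 and 5.75 and then 8.90, 8.85 and 9.10 (2.71 ± 0.40). The 3 E18.5 arrays read within a narrower range than the 3 E14.5 arrays for Mki67 and Nusap1. Kif11, the motor that separates spindle poles, rose by 2.48 ± 0.63 (adjusted p = 0.015), a call that was lost without E14.5 replicate 3 (adjusted p = 0.0625) or E18.5 replicate 3 (adjusted p = 0.0632). Cdc20, an activator of the anaphase-promoting complex, read 6.45, 6.82 and 6.30 and then 8.07, 8.0 and 9.05 (1.85 ± 0.55, adjusted p = 0.033), and its call was lost without any single MGE array other than E18.5 replicate 2, with adjusted p up to 0.128. The oligodendrocyte precursor genes rose on the same arrays, and their part in the mitosis result was not tested.

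Genes of DNA replication moved less. Of 26 measured, 4 of them dim at E14.5, 6 rose and none fell, with a median of 0.40. In the fit with no filter 5 of 34 rose (14.7%) and none fell, a share near the 12.1% of all genes. Among the 26, the count was 3 without any single E14.5 array or E18.5 replicate 1. It was 5 without E18.5 replicate 2, 2 without E18.5 replicate 3 and 11 with the 6 MGE arrays alone. Rrm2, a subunit of ribonucleotide reductase, rose by 1.34 ± 0.27, while its 2 other probe sets, at 0.92 and 1.03, were not called. Pcna, the replication clamp, was at 0.37 (adjusted p = 0.11). Ccnd1, the G1 cyclin D1, read 8.79, 8.85 and 9.12 and then 10.84, 10.50 and 11.13 (1.90 ± 0.19, adjusted p = 2.6e-05). The inhibitors of cyclin-dependent kinases went in both directions. Cdkn1c read 10.17, 10.05 and 10.15 and then 8.29, 8.51 and 8.37 (-1.73 ± 0.18, adjusted p = 3.5e-05), whereas Cdkn2c read 5.81, 5.81 and 5.75 and then 7.45, 7.64 and 8.35 (2.02 ± 0.36) and Cdkn1b rose by 0.70 ± 0.13.

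Because the mitosis genes moved together, their promoters were read. The cell cycle homology region (CHR) is an element through which the DREAM and MuvB complexes time genes of G2 and mitosis. Its letters TTTGAA were searched on both strands in the RefSeq (GRCm38.p6) window from 250 bases before to 50 bases after each start site, where 17.9% of 32851 windows held them. They were present in 21 of 28 measured mitosis genes with a window (75.0%) and in 2 of 21 measured replication genes (9.52%). The CCAAT box, letters CCAAT on either strand, was present in 75.0% of the mitosis genes, 66.7% of the replication genes and 37.4% of all windows. A match is a description of the window and not a site of binding. The windows of Cenpf (chr1:189688037-189688336, minus strand), Kif11 (chr19:37376132-37376431, plus strand) and Cdc20 (chr4:118437294-118437593, minus strand) are printed 5′ to 3′ along each gene. They are examples that hold the element close to the start, with the CHR in capitals. It begins at position 2 from the start site in Cenpf, at -19 in Kif11 and at -18 in Cdc20. Of the other mitosis genes named above, Nusap1 has a window without the CHR. In Mki67 the CHR occurs only farther before the start site.
Cenpf: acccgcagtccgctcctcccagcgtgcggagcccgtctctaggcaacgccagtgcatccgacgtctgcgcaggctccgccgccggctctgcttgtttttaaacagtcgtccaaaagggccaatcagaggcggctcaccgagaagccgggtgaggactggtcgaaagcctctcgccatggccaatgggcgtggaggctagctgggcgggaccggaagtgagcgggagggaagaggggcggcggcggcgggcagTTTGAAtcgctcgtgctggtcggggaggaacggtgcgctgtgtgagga
Kif11: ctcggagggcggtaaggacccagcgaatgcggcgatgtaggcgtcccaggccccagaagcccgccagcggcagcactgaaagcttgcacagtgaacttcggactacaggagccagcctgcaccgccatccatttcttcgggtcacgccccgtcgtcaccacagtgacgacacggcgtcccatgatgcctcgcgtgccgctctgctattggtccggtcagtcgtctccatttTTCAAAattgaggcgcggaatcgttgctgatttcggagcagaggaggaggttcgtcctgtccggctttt
Cdc20: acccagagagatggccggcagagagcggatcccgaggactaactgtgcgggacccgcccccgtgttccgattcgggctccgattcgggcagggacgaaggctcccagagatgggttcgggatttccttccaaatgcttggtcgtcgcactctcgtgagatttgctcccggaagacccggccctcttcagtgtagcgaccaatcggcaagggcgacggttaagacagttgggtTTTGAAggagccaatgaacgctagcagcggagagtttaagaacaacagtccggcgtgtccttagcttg

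The genes that define GABAergic neurons were lower at E18.5. Of 9 measured pan GABAergic genes, all 9 had a negative difference and 7 were called lower, with a median of -0.61. That count was 4 without E14.5 replicate 1, 5 without E14.5 replicate 2, 4 without E14.5 replicate 3, 6 without E18.5 replicate 1 or 2 and 3 without E18.5 replicate 3. Gad1, the main GABA-synthesising enzyme, read 10.70, 10.70 and 10.48 and then 9.99, 9.99 and 9.44 (-0.82 ± 0.18, adjusted p = 0.0077). Dlx5, a homeodomain factor of all ganglionic eminences, read 12.05, 12.01 and 12.28 and then 11.62, 11.55 and 11.20 (-0.66 ± 0.14, adjusted p = 0.0052), and Dlx1 fell by 0.51 on the log2 scale. Gad1 and Dlx5 were below their E14.5 range on every E18.5 array. Dlx2 was at -0.20 (adjusted p = 0.20). On the same arrays the mean level of the 20 oligodendrocyte precursor genes went from 7.61 to 7.70 at E14.5 to 10.52 to 11.17 at E18.5. Its part in these decreases, and in those of the neuronal genes that follow, was not tested.

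Of 9 measured genes listed as regulators of the MGE lineage, 1 rose and 1 fell, with a median of -0.12, a share close to the 21.2% of all genes called. Lhx6, the LIM homeodomain factor required for MGE interneuron identity, read 12.99, 12.92 and 12.81 at E14.5 and 12.62, 12.80 and 12.45 at E18.5, so the highest E18.5 array ended just under the lowest E14.5 array (-0.28 ± 0.23, adjusted p = 0.41). Maf, a factor of SST and PV interneuron fate, read 13.03, 13.07 and 13.12 and then 13.06, 13.07 and 12.95 (-0.04). Sox6, which acts downstream of LHX6, was at -0.16 ± 0.20 and was not called. Satb1, a chromatin organiser that promotes SST interneuron maturation, read 11.83, 11.80 and 11.88 and then 11.05, 11.04 and 11.05 (-0.79 ± 0.11, adjusted p = 0.00023), with the 3 arrays of each age close together. Of its 3 other probe sets 1 was not called (-0.72, adjusted p = 0.057). St18, a zinc finger factor of the MGE lineage, went the other way, from 7.33, 7.26 and 6.98 to 10.10, 10.19 and 10.28 (3.00 ± 0.18, adjusted p = 3.2e-07).

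Among genes of SST and PV interneurons, 11 of 26 listed were measured, 1 rose and 4 fell, with a median of -0.39, and 2 fell in each fit without 1 MGE array. Sst, the peptide that names the SST class, read 12.12, 12.02 and 12.48 and then 10.00, 9.50 and 8.97, a 6.56-fold fall (-2.71 ± 0.64, adjusted p = 0.011). Reln, the secreted glycoprotein reelin that SST interneurons and Cajal-Retzius cells make, read 11.22, 10.83 and 10.80 and then 8.21, 8.38 and 7.58 (-2.89 ± 0.39, adjusted p = 0.00027). Every E18.5 array lay at least 2 log2 units below every E14.5 array for both genes. Npy, a neuropeptide of part of the SST class, read 10.58, 10.63 and 10.70 and then 9.50, 9.53 and 8.76 (-1.37 ± 0.45, adjusted p = 0.048). Its call was lost without any single MGE array, with adjusted p of 0.106, 0.111 and 0.112 without E14.5 replicates 1 to 3 and 0.0809, 0.0694 and 0.168 without E18.5 replicates 1 to 3. Calb1, the calcium-binding protein calbindin, read 8.63, 8.45 and 9.01 and then 6.89, 6.66 and 6.42 (-2.04 ± 0.58, adjusted p = 0.029), and its call too was lost without any single MGE array (adjusted p = 0.0575 to 0.0905). Grin3a, an NMDA receptor subunit found in SST interneurons, read 5.66, 4.91 and 5.16 and then 8.15, 7.68 and 8.59 (2.90 ± 0.30, adjusted p = 3.4e-05).

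Neuropeptide and dense-core vesicle genes, a list that holds Sst and Npy, fell in 5 of 9 measured cases with a median of -0.63. Without 1 MGE array the count was 2 or 3. Cck, the peptide cholecystokinin, read 8.60, 8.47 and 8.52 and then 7.33, 7.29 and 6.81 (-1.39 ± 0.31, adjusted p = 0.0078). Chgb, a chromogranin of dense-core vesicles, read 10.89, 10.73 and 10.64 and then 10.21, 10.19 and 9.97 (-0.63 ± 0.16, adjusted p = 0.017), a call lost without E14.5 replicate 1 (adjusted p = 0.0732), E14.5 replicate 2 (0.0504) or E18.5 replicate 3 (0.0718). Pcsk1, a convertase that cleaves peptide precursors, read 6.50, 6.58 and 6.34 and then 5.70, 5.31 and 5.83 (-0.86 ± 0.27, adjusted p = 0.042), a call lost without any single MGE array (adjusted p = 0.0634 to 0.134). Nxph1, a neurexophilin of MGE interneurons, was at -0.33 and was not called.

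The cAMP response element (CRE) is the site through which CREB-family factors couple activity to peptide gene transcription, and the somatostatin promoter is its textbook case. The full palindrome TGACGTCA occurs in 1.79% of the 32851 windows and in 3 of the 8 measured genes of the neuropeptide list that have a window (37.5%), namely Sst, Chgb and Pcsk1. In the mitosis genes it occurs in 2 of 28 (7.14%). The windows of Sst (chr16:23890795-23891094, minus strand), Chgb (chr2:132781392-132781691, plus strand) and Pcsk1 (chr13:75089607-75089906, plus strand) are printed as those that hold the palindrome among the 5 genes of the list that fell, with the palindrome in capitals. The windows of Npy and Cck do not hold it. It begins at -48 from the start site in Sst, at -72 in Chgb and at -78 in Pcsk1.
Sst: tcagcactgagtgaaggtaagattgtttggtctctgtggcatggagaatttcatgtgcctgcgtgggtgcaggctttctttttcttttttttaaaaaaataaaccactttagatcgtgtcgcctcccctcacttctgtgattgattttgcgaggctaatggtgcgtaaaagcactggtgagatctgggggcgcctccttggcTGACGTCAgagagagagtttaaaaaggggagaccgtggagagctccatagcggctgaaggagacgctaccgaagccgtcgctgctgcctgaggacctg
Chgb: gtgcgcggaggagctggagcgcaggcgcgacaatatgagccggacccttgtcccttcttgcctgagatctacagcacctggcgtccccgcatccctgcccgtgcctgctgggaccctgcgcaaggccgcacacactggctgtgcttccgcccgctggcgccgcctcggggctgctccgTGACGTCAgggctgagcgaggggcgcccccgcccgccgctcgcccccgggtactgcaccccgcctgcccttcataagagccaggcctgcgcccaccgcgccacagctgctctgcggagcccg
Pcsk1: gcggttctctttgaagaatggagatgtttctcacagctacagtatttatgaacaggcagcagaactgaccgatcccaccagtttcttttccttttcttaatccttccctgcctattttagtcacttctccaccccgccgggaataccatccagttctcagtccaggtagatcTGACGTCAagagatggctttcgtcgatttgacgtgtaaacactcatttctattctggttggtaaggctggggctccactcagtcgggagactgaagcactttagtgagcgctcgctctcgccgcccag

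The MTG co-factors are nuclear proteins without DNA binding of their own that join transcription factors to repressor complexes, and MTG8, encoded by Runx1t1, is known as a partner of LHX6. Of the 3 family members, 1 fell and none rose. Runx1t1 read 12.65, 12.55 and 12.62 at E14.5 and 12.38, 12.35 and 12.27 at E18.5, so each E18.5 array was lower, but the difference was not called (-0.27 ± 0.17, adjusted p = 0.28). Cbfa2t2, which encodes MTGR1, was at -0.35 ± 0.14 (adjusted p = 0.098). Cbfa2t3, which encodes MTG16, read 11.76, 11.85 and 11.97 and then 10.52, 10.79 and 10.62 (-1.21 ± 0.20, adjusted p = 0.0013), and its 3 other probe sets were called lower too. By cell counts on sections the study reports few MTG16 cells in this lineage at E14.5 and MTG16 in nearly all at E18.5. It reports MTG8 in many at E14.5 and in few at E18.5. The values here are RNA intensities over all sorted cells, which is a different measure.

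**Figure D3:**
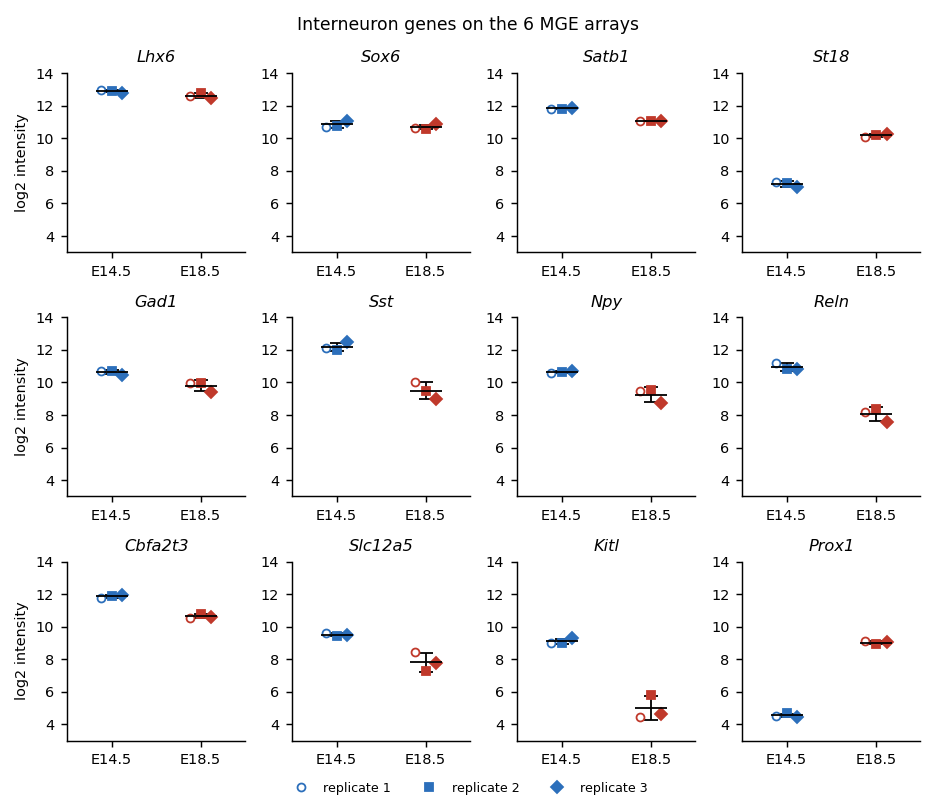
Log2 level of 12 interneuron genes on each MGE array (points) at E14.5 and E18.5, and bars give the mean ± SD. Lhx6 and Sox6 stay within a narrow band, Satb1, Gad1, Sst, Npy, Reln, Cbfa2t3, Slc12a5 and Kitl lie lower at E18.5, and St18 and Prox1 lie higher.

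Genes that mark the CGE changed in both directions. Of 9 measured CGE regulators, 2 rose and 2 fell. Those that rose were Prox1 and Nfix, the latter described above with the nuclear factor I genes. Prox1, a homeodomain factor of CGE interneurons that oligodendrocyte precursors also express, read 4.50, 4.68 and 4.47 at E14.5 and 9.12, 8.90 and 9.04 at E18.5 (4.47 ± 0.19, adjusted p = 3.5e-08). Its 2 other probe sets rose by 1.82 and 3.39. The nuclear receptors Nr2f1, which read 11.83, 11.88 and 11.92 and then 10.90, 10.70 and 10.53 (-1.17 ± 0.12, adjusted p = 2.9e-05), and Nr2f2 (-0.78 ± 0.18, adjusted p = 0.011) fell, though 2 of the 4 other probe sets of Nr2f2 were not called (-0.96 and -0.31). Sp8, a zinc finger factor of the CGE and lateral eminence, stayed between 4.20 and 4.58 on all 6 arrays. Of 6 measured genes of the lateral eminence and olfactory lineage, 3 of them dim at E14.5, 2 rose and none fell, with a median of 0.59. The count was 1 without any single MGE array. In the fit with no filter 2 of 10 rose and none fell. Of 4 measured pallial glutamatergic neuron genes none was called, with a median of -0.10. In the fit with no filter 2 of 12 fell (16.7%, against 8.17% of all genes) and none rose, with a median of -0.21. Neurod6, a factor of pallial projection neurons, was at -1.36 ± 0.53 (adjusted p = 0.096). It was called lower without E14.5 replicate 3 (-1.94, adjusted p = 0.022) or E18.5 replicate 2 (-1.79, adjusted p = 0.049). Tbr1, Emx1, Neurog2 and Slc17a6 were below the dim level.

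Genes of young neurons fell or did not change enough to be called. Of 22 measured immature neuron genes 9 fell and none rose, with a median of -0.24, and the count ran from 5 to 8 without 1 MGE array, being 5 without E14.5 replicate 2 or E18.5 replicate 3. Stmn2, a microtubule-destabilising protein of growth cones, read 12.57, 12.70 and 12.47 and then 11.34, 11.47 and 11.17 (-1.25 ± 0.11, adjusted p = 8.5e-06). Ina, the neurofilament protein internexin, fell by 1.12 ± 0.19 on the log2 scale, and the RNA-binding protein gene Elavl2 by 0.60 ± 0.10. Dcx, the microtubule protein doublecortin of migrating neurons, was at -0.16 and Sox11, a factor of young neurons, at -0.20, neither called, although 3 of the 5 other probe sets of Sox11 were called lower (-0.45 to -0.33). Of 34 microtubule and motor genes 8 fell and none rose, with a median of -0.18, and between 3 and 7 fell without 1 MGE array (4 without E14.5 replicate 1 or 2, 5 without E14.5 replicate 3, 3 without E18.5 replicate 1 and 4 without E18.5 replicate 3). The kinesin heavy chain Kif5a fell by 0.63 ± 0.10 on the log2 scale. Igf2bp1, a fetal RNA-binding protein, read 7.36, 7.77 and 8.30 and then 5.90, 5.77 and 5.36 (-2.13 ± 0.25).

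Release and excitability genes were more often lower than higher. Of 32 synaptic vesicle genes 8 fell and 2 rose, with a median of -0.35. Without E18.5 replicate 3, 5 fell, and 1 rose without any single MGE array. Stx1a, a syntaxin of the release machinery, read 8.97, 8.90 and 8.77 and then 8.19, 7.76 and 7.57 (-1.04 ± 0.19, adjusted p = 0.0027). Syt1, the calcium sensor of fast release, read 11.35, 11.23 and 11.54 and then 10.45, 10.56 and 10.13 (-1.0 ± 0.17, adjusted p = 0.0017). E18.5 replicate 3 read lowest in both genes. Syt11, a synaptotagmin that does not bind calcium, rose by 0.91 ± 0.16. Of 20 voltage-gated sodium and calcium channel genes 4 fell and none rose. Cacna1h, the T-type calcium channel Cav3.2, read 9.53, 9.70 and 9.55 and then 8.29, 8.03 and 7.91 (-1.52 ± 0.15), and Cacna2d3, an auxiliary calcium channel subunit, fell by 1.71 ± 0.27 on the log2 scale. Slc12a5, the potassium-chloride exporter KCC2 that makes GABA inhibitory, read 9.59, 9.43 and 9.48 and then 8.44, 7.27 and 7.76 (-1.68 ± 0.31, adjusted p = 0.0024), while its counterpart, the chloride importer Slc12a2, was at 0.20 (adjusted p = 0.37), with 1 of its 2 other probe sets called higher (0.76, adjusted p = 0.026).

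Potassium channel and receptor genes included large increases. Of 19 potassium channel genes, 8 of them dim at E14.5, 8 rose and 1 fell. In the fit with no filter 11 of 35 rose and 3 fell, with a median of 0.18. The inward rectifiers Kcnj16 and Kcnj10, the latter the Kir4.1 channel of glia, rose by 4.94 ± 0.22 and 3.88 ± 0.28, and Kcnd2, an A-type channel, by 3.25 ± 0.27. Of 12 genes of GABA receptors and chloride transport 2 rose and 1 fell. Gabrg1, a GABA-A receptor subunit, read 4.28, 4.23 and 4.22 and then 8.47, 8.22 and 9.21 (4.39 ± 0.23). Of 17 AMPA and kainate receptor genes 3 rose and 5 fell, with 1 or 2 rising without 1 MGE array and 3 falling without any array other than E18.5 replicate 2. Gria3 read 7.57, 7.40 and 7.09 and then 10.49, 10.32 and 11.06 (3.27 ± 0.20), and the kainate receptor subunit Grik1 read 8.12, 8.16 and 8.47 and then 6.21, 6.46 and 5.83 (-2.08 ± 0.24). The AMPA receptor subunits Gria1, at -0.37, and Gria2, at 0.38, were not called, but 1 of the 2 other probe sets of Gria2 was called higher (0.51, adjusted p = 0.041) and the other read -0.27.

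**Figure D4:**
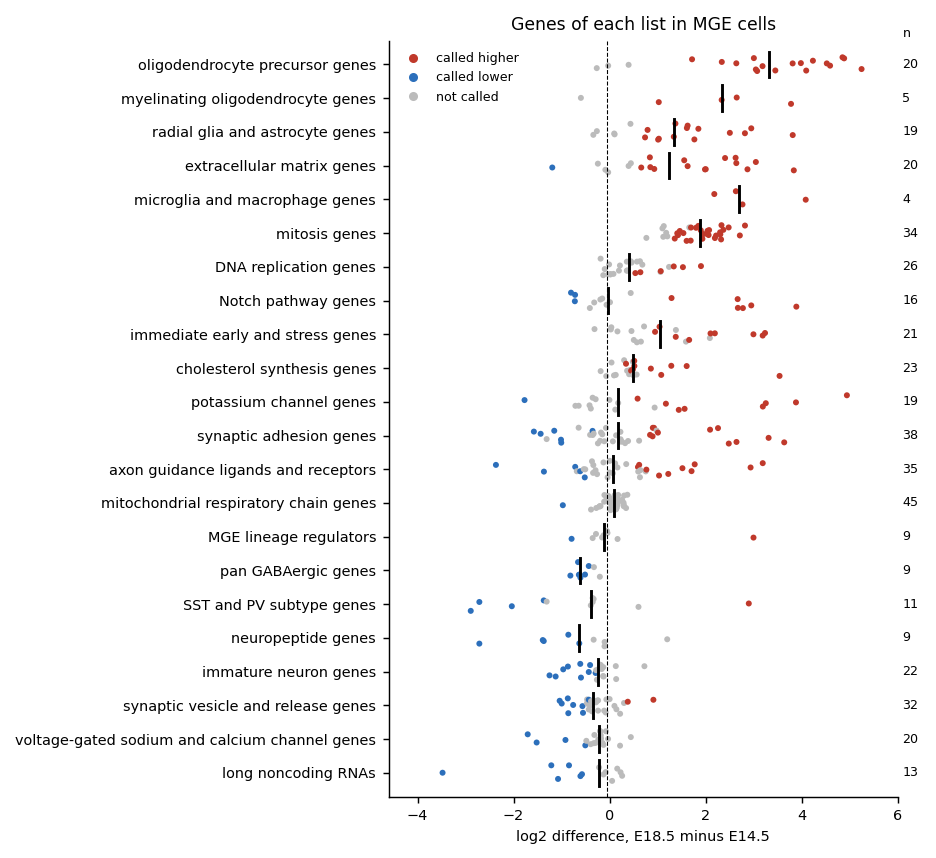
Difference in log2 level (E18.5 minus E14.5, horizontal axis) of every measured gene in 22 gene lists (points), with a bar at the median of each list, the number of measured genes at the right and a dashed line at the median of all genes (-0.06). Oligodendrocyte precursor, microglia and mitosis genes lie mostly to the right, and pan GABAergic and neuropeptide genes mostly to the left.

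Guidance, adhesion and matrix genes held changes in both directions with a surplus of increases. Of 35 axon guidance genes, 7 of them dim at E14.5, 10 rose and 5 fell. In the fit with no filter 15 of 48 rose and 7 fell. Sema3a, a repulsive semaphorin, read 10.53, 10.10 and 10.44 and then 8.32, 7.68 and 7.97 (-2.37 ± 0.24, adjusted p = 2.5e-05), and the ephrin Efna3 fell by 1.37 ± 0.27 on the log2 scale. Ntn1, the attractant netrin-1, rose by 3.19 ± 0.33, the ephrin receptor Ephb1 by 2.94 ± 0.47 and the ephrin Efna5 by 1.77 ± 0.18. Cadherin-family genes rose in 7 of 15 cases and fell in 2, or in 1 without any MGE array other than E18.5 replicate 1. Of the 15, 6 were dim at E14.5, and with no filter 10 of 22 rose and 1 fell. Pcdh15 rose by 3.48 ± 0.14, whereas Pcdh19, a protocadherin of neurons, read 11.15, 10.88 and 11.35 and then 8.93, 9.28 and 8.98 (-2.06 ± 0.33). Of 38 synaptic adhesion genes, 6 of them dim at E14.5, 11 rose and 6 fell, with 3 falling without E14.5 replicate 2. With no filter 12 of 43 rose and 6 fell. Lrrc4c, the netrin-G1 ligand, rose by 3.31 ± 0.38 and Nlgn1, neuroligin 1, by 2.64 ± 0.23, while the teneurin Tenm4 fell by 1.15 ± 0.23 on the log2 scale. Of 20 extracellular matrix genes 14 rose, with a median of 1.24, and 11 to 13 rose without 1 MGE array. Among the 20, 1 fell, a call lost without any single MGE array. Of the 20, 7 were dim at E14.5, and with no filter 17 of 30 rose and 1 fell, with a median of 0.84. Sparc, a matricellular protein of glia and vessels, read 7.45, 7.85 and 6.68 and then 11.08, 10.91 and 11.52 (3.84 ± 0.33), Acan, the core protein of perineuronal nets, rose by 2.87 ± 0.26 and Ptn, a growth factor that binds PTPRZ1, by 2.62 ± 0.16.

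Receptors of interneuron migration differed among themselves. Of 18 chemokine and growth factor receptor genes and ligands, 4 of them dim at E14.5, 6 rose and 3 fell. One of the increases was Pdgfra, which is counted above with the oligodendrocyte precursor genes. In the fit with no filter 7 of 21 rose and 4 fell. Ackr3, the CXCL12 receptor CXCR7 that steers migrating interneurons, read 12.91, 12.91 and 13.16 and then 12.91, 12.82 and 12.71 and was not called (-0.18 ± 0.35). Gfra1, the GDNF receptor, read 3.76, 3.89 and 4.03 and then 8.23, 8.38 and 9.07 (4.66 ± 0.18). Cxcl14, a chemokine, read 5.05, 4.44 and 4.58 and then 8.23, 8.0 and 8.91 (3.69 ± 0.51, adjusted p = 0.00031). Nrg3, a neuregulin that guides interneurons into the cortical plate, fell by 1.67 ± 0.31 on the log2 scale.

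Of 16 Notch pathway genes 6 rose and 3 fell, with a median of -0.03, and these counts were the same without any single MGE array. Notch1, a receptor, read 7.30, 7.44 and 6.69 and then 9.65, 9.61 and 10.18 (2.67 ± 0.29). Nrarp, a feedback target of Notch, read 7.06, 7.14 and 6.82 and then 10.88, 10.49 and 11.32 (3.89 ± 0.33, adjusted p = 6.3e-06), and the effector Hey1 rose by 2.78 ± 0.39. Both genes of the pair read in full were separated between the ages by more than 2 log2 units. Rbpj, the DNA-binding partner of cleaved Notch, read 9.10, 9.13 and 9.12 and then 8.47, 8.21 and 8.49 (-0.72 ± 0.12), and Hes6, which opposes HES1 in neurogenesis, fell by 0.72 ± 0.13 on the log2 scale. Of 17 BMP and TGF-beta genes 8 rose and 2 fell (1 without any single MGE array), with the ligands Bmp7 at 3.73 ± 0.20 and Tgfb2 at 3.06 ± 0.49 and the mediator Smad3 at -1.09 ± 0.21. Of 16 Wnt pathway genes 4 rose and 2 fell (1 without any MGE array other than E18.5 replicate 3), among them Tcf7l2, a Wnt effector active in oligodendrocyte differentiation, at 4.16 ± 0.22. Nr3c1, the glucocorticoid receptor, rose by 2.62 ± 0.17.

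Genes of cells outside the Nkx2-1 neural lineage rose as well. Of 16 microglia and macrophage genes 8 were in the table, and in the fit with no filter 4 of these rose and none fell, with a median of 1.68. The 4 that rose were those that passed the filter, all dim at E14.5, and their mean level went from 4.51 to 5.20 on the E14.5 arrays to 7.34 to 8.11 on the E18.5 arrays. Laptm5, a lysosomal protein of haematopoietic cells, read 5.40, 5.33 and 4.77 and then 10.01, 9.11 and 8.63 (4.09 ± 0.81, adjusted p = 0.0042). Csf1r, the receptor on which microglia depend, rose by 2.63 ± 0.56 and C1qb, a complement component, by 2.18 ± 0.25. The defining markers P2ry12, Ptprc, Cd68 and Mrc1 were below the dim level. Of 4 measured vascular and mural genes 3 rose, namely the pericyte gene Rgs5 (2.59 ± 0.41), Cspg4, which pericytes share with oligodendrocyte precursors and which is counted above, and the basement membrane collagen Col4a1 (0.85), whose call was lost without E14.5 replicate 1 or E18.5 replicate 2. Of the 4, 2 were dim at E14.5, and with no filter 3 of 9 rose and none fell. Of 2 measured haemoglobin genes, which mark red cells, Hbb-b2 read 6.03, 7.01 and 4.67 and then 8.17, 9.21 and 8.11 (2.59 ± 0.75, adjusted p = 0.029), a call that was lost without any single MGE array other than E14.5 replicate 2. Hba-a2 read 12.70, 12.73 and 12.79 and then 12.47, 12.61 and 12.53 (-0.20) and was not called. The part of these cells in the other results was not tested.

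Immediate early genes, which activity and growth factors induce, were listed together with stress genes. Of the 21 measured genes of this list 9 rose, with a median of 1.04, and 6 to 11 rose without 1 MGE array. Of the 21, 8 were dim at E14.5, and with no filter 11 of 29 rose and none fell. Egr3 rose by 3.24 ± 0.29, Egr2 by 3.19 ± 0.52 and the phosphatase Dusp6 by 2.19 ± 0.37. Fos varied within an age, at 11.23, 11.92 and 8.40 and then 12.60, 12.43 and 11.29, and was not called (1.59 ± 0.87, adjusted p = 0.23). Its low reading was on E14.5 replicate 3.

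Metabolic and chromatin genes changed by smaller amounts. Of 23 cholesterol synthesis genes 10 rose and none fell, with a median of 0.48, and 4 rose without E14.5 replicate 1 or E18.5 replicate 1, 6 without E14.5 replicate 2 and 5 without E18.5 replicate 3. Idi1, an isomerase of the pathway, rose by 1.61 ± 0.26, and Scd1, a desaturase of fatty acids, by 3.54 ± 0.39. Of 25 hypoxia and glycolysis genes 6 rose and none fell. Ldha, lactate dehydrogenase A, read 8.91, 8.83 and 8.91 and then 10.55, 10.47 and 10.69 (1.68 ± 0.21). Of 45 genes of the respiratory chain none rose, with a median of 0.09, and 1 fell, a call that held without E14.5 replicate 3 and was lost without each other array. Of 53 chromatin genes 13 fell and 5 rose, the increases at a share no larger than the 11.4% of all genes. Without 1 MGE array 2 to 4 rose, and the count of decreases was 8 without E14.5 replicate 1 or 3, 7 without E14.5 replicate 2 or E18.5 replicate 3 and 6 without E18.5 replicate 1. Actl6b, the neuron-specific BAF subunit BAF53b, read 9.76, 9.76 and 9.53 and then 8.63, 8.62 and 8.55 (-1.08 ± 0.15, adjusted p = 0.00027), while Chd7, a remodeler needed by oligodendrocyte precursors, rose by 1.04 ± 0.13. Mir124-2hg, the host transcript of the neuronal miRNA miR-124, read 10.22, 10.38 and 10.43 and then 8.65, 8.45 and 8.15 (-1.93 ± 0.24).

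The MGE change was then set against that of CGE cells between E16.5 and E18.5, which shares no array with it. The starting days differ, and the cells were sorted with different reporters (YFP and Venus). Lineage, interval and sort therefore cannot be told apart. At E18.5 the mean level of the 20 oligodendrocyte precursor genes was 10.52 to 11.17 on the MGE arrays and 7.07 to 7.21 on the CGE arrays. The part of this in the differences below was not tested. The MGE change minus the CGE change was called for 755 of the 8792 genes (8.59%), in 591 cases positive and in 164 negative. Of the 1005 genes that rose in MGE cells 494 had a called difference, and of the 859 that fell, 110. Both sets were chosen for the MGE change, which is 1 term of this difference, so their shares are not to be read against the 8.59%. The 20 largest MGE increases, chosen in the same way, all had a called difference, and the CGE change of these genes ran from -0.42 to 2.17. Of the 20 largest decreases 9 had one. Gjc1 fell by 2.76 on the log2 scale in MGE cells against a CGE difference of 0.84, and Kitl by 4.13, with a difference between the changes of -4.43. Prox1, at 4.47 in MGE and -0.28 in CGE cells, and Cxcl14, at 3.69 and -2.02, had values of opposite sign, with differences of 4.75 and 5.71 between the changes (adjusted p = 1.4e-06 and 0.00035). The rise was larger in MGE cells by 2.64 for St18 and by 1.69 for Ccnd1 (adjusted p = 0.0020). Stmn2 was at -1.25 in MGE and 0.02 in CGE cells (difference -1.28).

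Other changes had no called difference between the lineages. None of the 34 mitosis genes had a called difference, with Mki67 at 2.33 in MGE and 2.68 in CGE cells and Cenpf at 2.82 and 3.16. Reln was at -2.89 and -3.34, Cbfa2t3 at -1.21 and -1.21, and Cacna1h at -1.52 and -1.08. Sst was at -2.71 in MGE and -0.91 in CGE cells, and the difference of -1.80 was not called (adjusted p = 0.27). A difference that was not called does not show that the changes are alike.

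**Figure D5:**
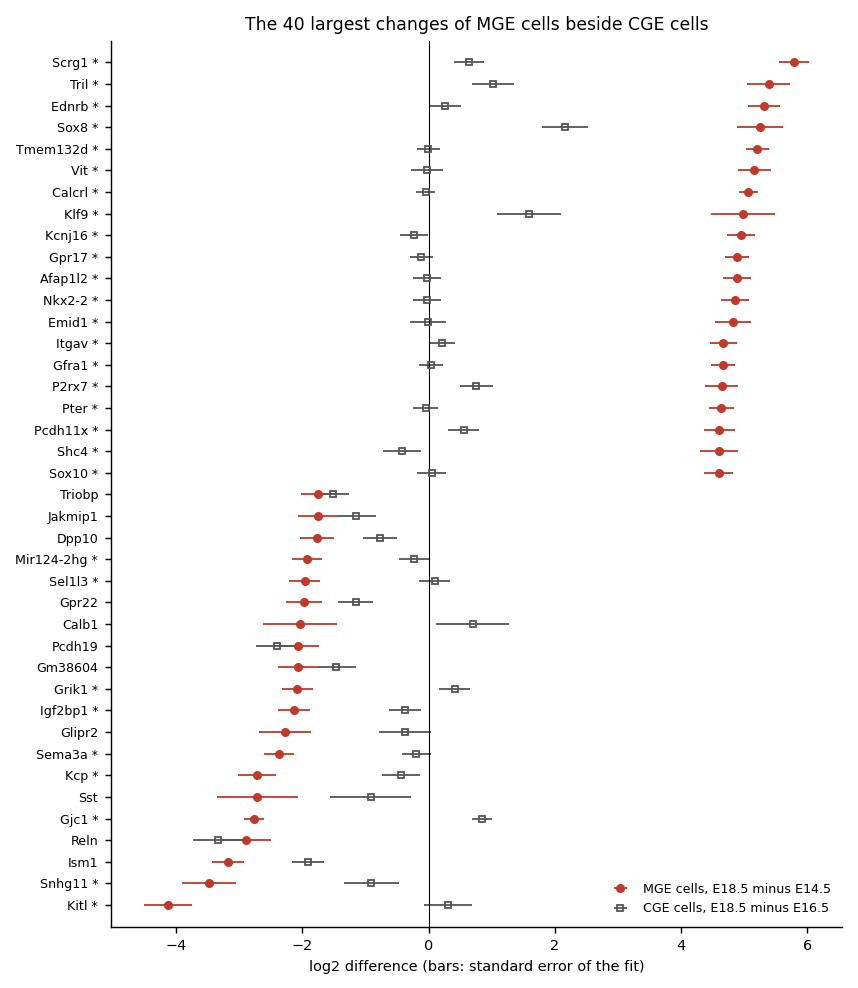
Difference in log2 level ± SE of the 20 largest increases and 20 largest decreases in MGE cells (E18.5 minus E14.5) beside the difference of the same genes in CGE cells (E18.5 minus E16.5), with an asterisk where the difference between the changes was called. All 20 increases and 9 of the 20 decreases carry an asterisk.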

How the data were processed

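The authors hybridised amplified, biotin-labelled cDNA to 12 Affymetrix mouse genome arrays and deposited a table of normalised log2 intensities. The study's methods name Bioconductor for background correction and normalisation, the submitters' processing notes name MAS5, and the versions are not given in the sources used here. Of 27094 probe sets, 22343 carried a single gene symbol in the platform annotation, 567 carried several, 4150 had none and 34 were controls. Probe sets that exceeded the 40th percentile of an array (level 7.10 to 7.17) on fewer than 3 of the 12 arrays were set aside, and the kept probe set with the highest mean stood for its gene, which gave 16002 probe sets and 8792 genes. A gene under that level is called below the dim level.

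A single linear model with 4 group means was fitted to all 12 arrays in R 4.3.3 with the lmFit, contrasts.fit and eBayes functions of limma 3.58.1 (two-sided), so the CGE arrays share in the estimate of the spread, with Benjamini-Hochberg adjustment over all 8792 genes. The fit was tested on simulated data with known changes. The 54 gene lists and the genes described were chosen with earlier results of these data known, so list counts and medians are descriptions without a test. Named are the 20 largest called changes in each direction without overlap between the ages, up to 6 called members per list with the largest differences, and other members where the account of a list needed them. The number of arrays limits the precision, and the p-values measure the spread between these pooled samples. Alternatives were other filters, quantile normalisation, the mean of a gene's probe sets, the 6 MGE arrays alone, other moderation, array weights, averaging E14.5 replicates 1 and 2, a replicate block, and leaving out each array. Those without a CGE array were chosen after seeing the data. Promoter windows came from RefSeq (GRCm38.p6).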

Additional observations from a re-analysis of the deposited data

Results flagged for a closer look

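The change in MGE cells (E18.5 minus E14.5) differed from that in CGE cells (E18.5 minus E16.5) by limma's adjusted p for 29 of the 40 largest changes, which is a test of the difference itself over 12 arrays. These genes were chosen for a large MGE change, which is 1 term of that difference, so their share is not to be read against the 8.59% of all genes. Each value here is the MGE change minus the CGE change on the log2 scale. Among genes of the oligodendrocyte lineage the difference was 4.54 for Sox10, 4.87 for Nkx2-2, 5.0 for Gpr17 and 3.08 for Sox8. Among receptors and channels it was 5.05 for Ednrb, 5.11 for Calcrl, 4.63 for Gfra1, 3.89 for P2rx7 and 5.18 for Kcnj16. Among surface, matrix and adhesion genes it was 4.46 for Itgav, 4.05 for Pcdh11x, 5.21 for Tmem132d, 5.18 for Vit, 4.83 for Emid1 and 4.37 for Tril. For the remaining increases it was 5.14 for Scrg1, 3.39 for Klf9, 4.91 for Afap1l2, 4.68 for Pter and 5.02 for Shc4.

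Among the decreases the difference was -4.43 for Kitl, -3.61 for Gjc1, -2.50 for Grik1, -2.27 for Kcp, -2.18 for Sema3a, -2.06 for Sel1l3, -1.76 for Igf2bp1 and -1.69 for Mir124-2hg. For Snhg11 it was -2.58, and the call was lost with array weights and without E14.5 replicate 2, E18.5 replicate 2 or E18.5 replicate 3 of the MGE cells or E16.5 replicate 3 of the CGE cells (adjusted p = 0.0503 to 0.0584). The MGE interval starts at E14.5 and the CGE interval at E16.5, and the cells were sorted with different reporters. Lineage, interval and sort cannot be told apart in any of these values.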

How the results depend on the processing

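The counts of called genes moved with the treatment of single arrays. With array weights 1550 genes were higher and 1940 lower, with E14.5 replicates 1 and 2 averaged 457 were lower, and without 1 MGE array 691 to 902 were higher and 461 to 643 lower. The stricter filter left 375 genes higher by at least 2-fold, and without 1 MGE array this count was 472 to 608, with 106 to 130 lower by at least 2-fold. The difference between MGE and CGE changes was called for 534 to 987 genes over all settings. In the fit with replicate number as a block 1077 genes were higher and 854 lower. Same-numbered arrays of the 2 ages deviated from their group means with correlations of -0.004, -0.030 and -0.010, so the numbers pair nothing.

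Single genes kept their direction, apart from 3 differences between lineages that were not called. Over the fits without 1 array these ran from -0.11 (without CGE E18.5 replicate 2) to 0.76 (without CGE E18.5 replicate 3) for Reln, from -0.09 to 0.62 without the same arrays for Pcdh19, and from -0.56 (without CGE E18.5 replicate 1) to 0.085 (without CGE E18.5 replicate 3) for Triobp. The calls of Npy, Calb1, Pcsk1, Chgb, Cdc20, Kif11, Hbb-b2 and Col4a1 were lost in at least 1 setting, in Npy also under quantile normalisation (adjusted p = 0.055), with no filter (0.0506) and with robust moderation (0.061). Ermn, not called, passed under quantile normalisation (adjusted p = 0.048), the stricter filter (0.0445), the replicate block (0.0305), the mean of its probe sets (0.0287), the 6 MGE arrays alone (0.0114) and array weights (0.0021). Other genes described as not called passed in a few settings: Cbfa2t2, Pcna, Sp8 and Neurod6 with array weights (adjusted p = 0.0389, 0.0224, 0.0226 and 0.0045), Pcna and Nxph1 with the 6 MGE arrays alone (0.0426 and 0.0376), Slc12a2 and Sox11 with the mean of their probe sets (0.0129 and 0.0361), and Sox11 and Hba-a2 with robust moderation (0.0309 and 0.0428). The cause was not tested.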
